A study of Mus musculus with 8 samples.

Results

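The matrix proteases and their inhibitors were the genes of the deposited table whose symbols begin with Mmp, Adam, Adamts or Timp followed by a number. The table held 53 of them among 16122 genes: 19 matrix metalloproteases (MMPs), 18 ADAMs, 12 ADAMTSs and 4 tissue inhibitors of metalloproteases (TIMPs). Bulk RNA sequencing was done on liver of male C57BL/6J mice, an inbred strain, in 4 libraries of a group named NASH (nonalcoholic steatohepatitis, fatty liver with inflammation) and 4 of a group named WT. All mice carried the wild-type genotype, so WT is a group name only. The design text describes mice bought at 8 weeks of age that then ate, for 28 weeks, a normal diet or one rich in fat, cholesterol and fructose. No label links a group name to a diet, and taking NASH for the rich diet and WT for the normal one is an assumption. Whether every library had a separate mouse behind it is not stated, and the p-values therefore reflect differences among libraries, some of which may be technical.

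MMPs are zinc-dependent enzymes that cut collagens, elastin and other matrix proteins, and most are secreted as inactive precursors. ADAMs are mostly membrane proteins that release the outer parts of other membrane proteins, although some lack the catalytic site. ADAMTSs are secreted relatives that process procollagen, cut proteoglycans or cleave plasma proteins, and TIMPs bind and block the active enzymes. In liver, this balance is studied for the build-up and removal of scar, with stellate cells and macrophages as known sources.

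Counts per library summed to between 25760117 and 32684719. The members took 0.0657%, 0.0798%, 0.177% and 0.119% of the counts in NASH replicates 1 to 4, against 0.0460% to 0.0522% in the WT libraries. The marker genes of hepatocytes were abundant in every library, with summed levels of 41122 to 110878 CPM in NASH and 154988 to 188170 CPM in WT, and 2 of the 10 tested were lower in NASH (CPM, reads per gene relative to the scaled library size). With 1 library left out 0 to 2 were lower, and none without NASH replicate 4 or WT replicate 1. NASH replicate 3 had the lowest hepatocyte sum and the largest scaling factor, 1.40. In bulk RNA, fewer cells of a type and less RNA per cell cannot be told apart, and this holds for every level below.

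Of the 53 members, 39 passed the filter on low counts and were tested, and 14 did not. Every member that passed the test was higher in NASH livers: 19 of the 39 passed at an adjusted p under 0.05 (edgeR quasi-likelihood test, Benjamini-Hochberg adjustment over 12351 genes) with a positive fold change. Among all genes tested, 12.9% were higher and 6.00% lower by the same rule. No member was called lower, where at an unadjusted p under 0.05 the test gave 1 lower and 25 higher, and DESeq2 called 1 lower, Adam2. Every NASH library lay above every WT library for 17 of the 39 tested members, and for 14.6% of all genes tested. The median log2 fold change, NASH over WT, was 1.32 over the tested members and 0.012 over all genes tested. The change exceeded 2-fold for 18 of the 19 and 4-fold for 10. Of the 39, 28 had at least 10 reads in every WT library. Some others, such as Timp1 and Mmp13, met the filter only through their NASH reads, and Adam2 only through its WT reads. The counts, shares and median of the members partly depend on this.

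By family, and with no test between families, the counts were as follows, where 12.9% of all genes tested were higher. Among the MMPs 7 of 12 tested were higher (median log2 fold change 1.66), among the TIMPs 2 of 3 (1.37), among the ADAMTSs 5 of 11 (1.33) and among the ADAMs 5 of 13 (0.48). Within the NASH group the libraries were unequal. Replicate 3 was the highest NASH library for 11 of the 19 genes and replicate 4 for 6, while replicate 1 was the lowest for 14. Without 1 library at a time, the number of members called higher ran from 10 (without WT replicate 1) to 23 (without NASH replicate 1), and 10 of the 19 passed in all 8 of these fits. It was 12 without NASH replicate 4, 11 without WT replicate 3 and 12 without WT replicate 4.

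**Figure D1:**
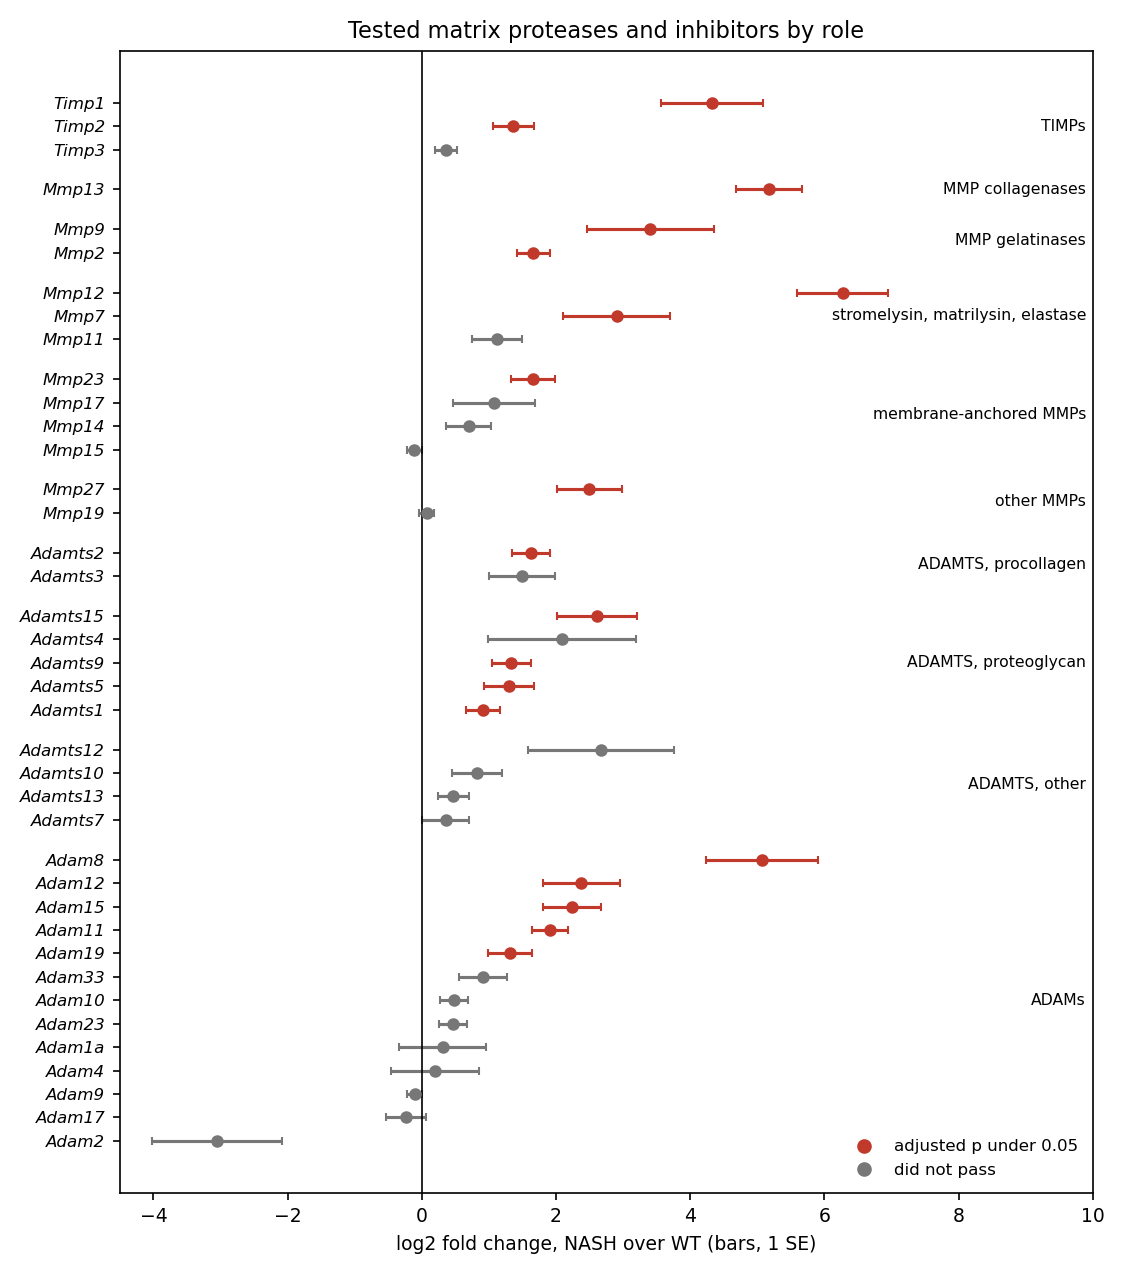
Log2 fold change, NASH over WT, of the 39 tested members, grouped by role, with bars of 1 SE from the edgeR fit on 4 NASH and 4 WT libraries. Red points passed at an adjusted p under 0.05 and all lie right of 0, and the leftmost point is Adam2 at -3.05.

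The gene with the largest fold change was Mmp12, macrophage elastase, which cuts elastin and is made mainly by macrophages (chromosome 9, 7344381 to 7369499, plus strand, GRCm38). Mmp12 had 47.3, 54, 299 and 104 CPM in NASH replicates 1 to 4, against 1.35, 1.82, 1.54 and 1.78 CPM in WT replicates 1 to 4. The WT libraries were close together, and each NASH library was far above them, replicate 3 most of all. Mmp12 thus had a log2 fold change of 6.27 ± 0.67 (SE; edgeR adjusted p = 0.00271). Without NASH replicate 3 the log2 fold change was 5.38 and still passed. The 3′ end of Mmp12 overlaps Mmp1b on the other strand, and the strand setting of the counting is not given in the sources used here.

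Mmp13 is the main enzyme of rodents that cuts intact fibrillar collagen (chromosome 9, 7272514 to 7283331, plus strand). Mmp13 had 3.78, 5.66, 11.1 and 6.45 CPM in NASH replicates 1 to 4, against 0.168, 0.182, 0.069 and 0.315 CPM in WT replicates 1 to 4. The groups did not overlap, although the WT libraries held only 20 reads in all. The fit put Mmp13 at 5.17 ± 0.50 (log2 fold change ± SE; edgeR adjusted p = 0.00199). Of the other collagenase in the table, Mmp8, which neutrophils store in granules, the NASH libraries held 10, 2, 440 and 189 reads and the WT libraries 3, 7, 0 and 2. NASH replicates 3 and 4 stood far above WT, NASH replicate 2 lay among the WT libraries, and Mmp8 did not pass the count filter. In the fit without that filter its log2 fold change was 5.27 ± 1.53 (SE) with an edgeR adjusted p of 0.0561.

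Mmp13 and Mmp12 stand in a row of MMP genes on chromosome 9, with Mmp3, Mmp10, Mmp8, Mmp27 and Mmp7 following in that order among the genes in the table, on the plus strand of GRCm38. Mmp7 begins 420 kb after Mmp13. All 4 tested genes of the row passed higher in NASH, where 12.9% of all genes tested did, and the rest did not pass the filter. With 1 library left out, Mmp7 kept its call in only 2 of 8 fits, and Mmp13, Mmp12 and Mmp27 in all 8. Of the 4, Mmp13 met the filter through its NASH reads alone, and Mmp7 needed its NASH reads as well. Mmp3 and Mmp10, which are stromelysins that cut a wide range of matrix proteins, had 2 and 3 reads over the NASH libraries and 3 and 0 reads over the WT libraries. The neighbours of the row thus ranged from almost no reads to 17573 for Mmp12 in NASH.

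Promoter windows of these genes are shown because members of 1 row on the chromosome with the same motif had very different levels. The sequences run 5′ to 3′ over 250 bases before to 50 bases after a start, from RefSeq (GRCm38.p6), plus strand. Capitals mark TGANTCA, a binding motif of AP-1 (Fos and Jun dimers) that reads the same on both strands. They also mark TATAAA, the letters of a TATA box, on the gene's strand and anywhere in the window. The windows of Mmp13 (chr9:7272264-7272563), Mmp12 (its second annotated start, chr9:7347124-7347423), Mmp7 (chr9:7691840-7692139), Mmp3 (chr9:7445572-7445871) and Mmp10 (chr9:7502092-7502391) follow.
Mmp13: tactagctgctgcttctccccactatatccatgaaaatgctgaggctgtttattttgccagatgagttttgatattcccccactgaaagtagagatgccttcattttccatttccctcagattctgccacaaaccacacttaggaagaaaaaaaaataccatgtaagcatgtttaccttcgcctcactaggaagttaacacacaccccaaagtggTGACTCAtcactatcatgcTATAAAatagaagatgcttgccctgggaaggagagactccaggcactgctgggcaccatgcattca
Mmp12: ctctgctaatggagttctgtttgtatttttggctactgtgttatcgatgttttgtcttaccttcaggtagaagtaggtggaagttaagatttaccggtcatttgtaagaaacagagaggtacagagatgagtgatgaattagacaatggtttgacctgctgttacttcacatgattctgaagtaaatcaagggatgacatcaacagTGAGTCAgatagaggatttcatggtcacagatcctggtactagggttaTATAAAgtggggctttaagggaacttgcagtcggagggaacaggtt
Mmp7: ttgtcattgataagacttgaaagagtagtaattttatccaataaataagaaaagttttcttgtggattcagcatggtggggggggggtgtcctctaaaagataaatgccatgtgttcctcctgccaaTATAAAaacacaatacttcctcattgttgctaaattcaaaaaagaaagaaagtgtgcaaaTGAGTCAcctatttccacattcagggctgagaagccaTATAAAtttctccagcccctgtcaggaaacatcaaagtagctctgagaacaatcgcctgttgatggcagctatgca
Mmp3: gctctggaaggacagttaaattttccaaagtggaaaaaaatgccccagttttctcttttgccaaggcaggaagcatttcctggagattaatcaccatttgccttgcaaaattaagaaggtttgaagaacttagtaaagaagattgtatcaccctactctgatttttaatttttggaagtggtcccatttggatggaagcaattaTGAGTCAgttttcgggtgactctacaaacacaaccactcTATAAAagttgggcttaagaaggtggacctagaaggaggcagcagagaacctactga
Mmp10: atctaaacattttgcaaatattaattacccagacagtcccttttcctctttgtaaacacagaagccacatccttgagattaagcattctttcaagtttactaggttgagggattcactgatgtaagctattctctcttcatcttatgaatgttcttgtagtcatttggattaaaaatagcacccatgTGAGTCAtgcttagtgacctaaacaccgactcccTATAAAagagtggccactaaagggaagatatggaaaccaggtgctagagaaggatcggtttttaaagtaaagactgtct

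TGANTCA began 35 bases before the start in the Mmp13 window, 44 before it in the Mmp12 window, 63 before it in the Mmp7 window, 46 before it in the Mmp3 window and 63 before it in the Mmp10 window. These 5 were among 9 windows of the row (55.6%), where 7.81% of all 32851 promoter windows held the motif. Of the 41 windows found for 36 of the 53 members, 7 held it (17.1%), and 4 of the 18 windows of genes called higher did. TATAAA stood in the same 5 windows of the row, and both motifs together were in 0.995% of all windows. That count depended on where TATAAA was sought. TATAAA began 16 bases before the start in the Mmp13 window, 7 in the Mmp3 window and 29 in the Mmp10 window. In the Mmp7 window the nearer of 2 began 26 bases before the start. In the Mmp12 window TATAAA began 4 bases after the start, which lies 2993 bases into the gene. A first search only 40 to 20 bases before the start found it in 2 of the 9, Mmp10 and Mmp7 (1.99% of all windows), and the search was widened to the whole window after the sequences had been seen. The other window of Mmp12, which is the nearer to the start of the gene, held neither motif. The same was true of the other window of Mmp7 and of the windows of Mmp8 and Mmp27. The motif was thus present in Mmp12, with 17573 reads over the NASH libraries, and in Mmp3, with 2, and a match describes letters in a window, not a bound site.

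**Figure D2:**
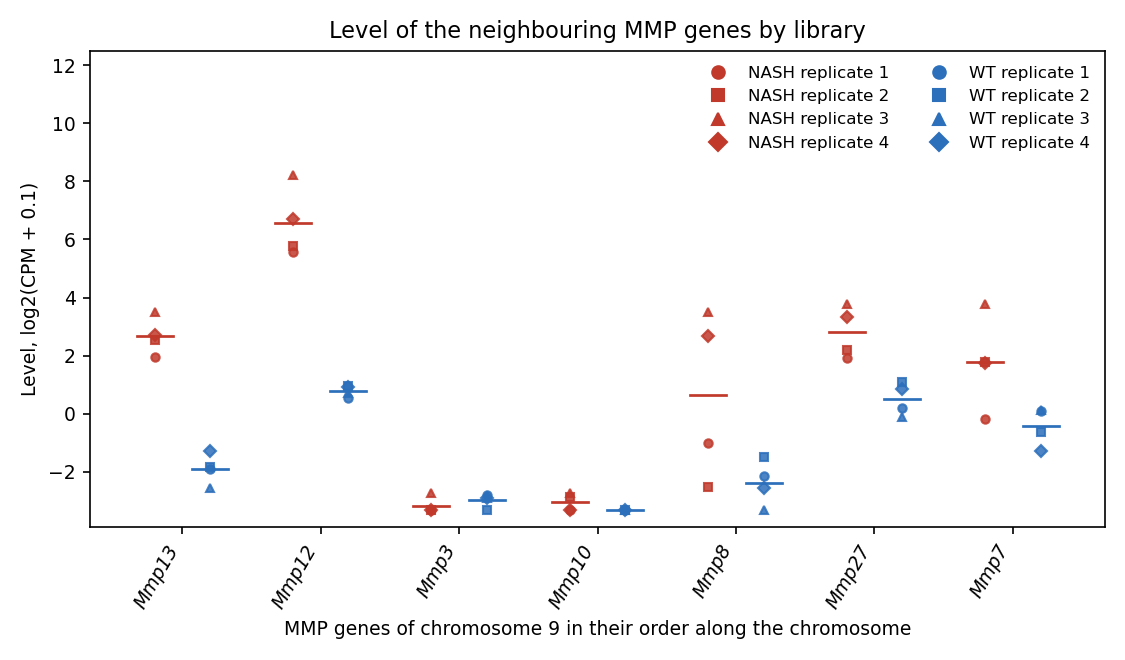
Level of the 7 MMP genes of chromosome 9 that are in the table, in their order along the chromosome, as log2(CPM + 0.1) per library, NASH in red and WT in blue, with group means as lines. Mmp12 stands highest, Mmp3 and Mmp10 lie near 0 reads in both groups, and the 4 NASH points of Mmp8 are spread widely.

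Mmp27, a little-studied MMP, was also called in that row. Mmp27 had 3.66, 4.44, 13.6 and 9.9 CPM in NASH replicates 1 to 4, against 1.05, 2.0, 0.822 and 1.71 CPM in WT replicates 1 to 4. All NASH libraries exceeded all WT libraries, with NASH replicates 3 and 4 highest. The log2 fold change of Mmp27 was 2.5 ± 0.48 (SE), with an edgeR adjusted p of 0.0122. Mmp7, matrilysin, is made mainly by epithelial cells. Mmp7 had 0.788, 3.29, 13.8 and 3.26 CPM in NASH replicates 1 to 4, against 0.969, 0.547, 0.993 and 0.315 CPM in WT replicates 1 to 4. Its groups overlapped, since NASH replicate 1 lay among the WT libraries, and NASH replicate 3 was far above the other NASH libraries. Mmp7 thus had a log2 fold change of 2.91 ± 0.80 (SE; edgeR adjusted p = 0.0349). Without NASH replicate 3 the log2 fold change was 1.78. The call was lost without NASH replicate 3, NASH replicate 4 or any WT library, and in limma-voom (adjusted p = 0.150).

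The gelatinases, which cut denatured collagen and basement membrane, both passed. Mmp2 had 5.71, 12, 8.9 and 7.74 CPM in NASH replicates 1 to 4, against 2.95, 3.1, 2.5 and 2.31 CPM in WT replicates 1 to 4. This gene of fibroblast-like cells had well separated groups, with NASH replicate 2 highest. The fit put Mmp2 at 1.66 ± 0.25 (log2 fold change ± SE; edgeR adjusted p = 0.00613). Mmp9 is abundant in neutrophils and macrophages. Mmp9 had 0.867, 0.444, 7.31 and 3.32 CPM in NASH replicates 1 to 4, against 0.042, 0.401, 0.171 and 0.49 CPM in WT replicates 1 to 4. NASH replicates 3 and 4 stood far above WT, while NASH replicate 2 lay inside the WT range. The log2 fold change of Mmp9 was 3.41 ± 0.95 (SE), with an edgeR adjusted p of 0.0364. Without NASH replicate 3 it was 2.44 on the log2 scale. The call was lost without NASH replicate 3, NASH replicate 4 or any WT library, and in limma-voom (adjusted p = 0.147).

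Of 4 membrane-anchored MMPs tested 1 passed, a count too small to set apart from the 12.9% of all genes tested that were higher. The gene that passed, Mmp23, encodes an enzyme anchored at its amino end. Mmp23 had 2.36, 2.81, 2.05 and 2.99 CPM in NASH replicates 1 to 4, against 0.674, 0.911, 1.1 and 0.525 CPM in WT replicates 1 to 4. The groups did not overlap. Mmp23 thus had a log2 fold change of 1.66 ± 0.33 (SE; edgeR adjusted p = 0.0128). Mmp14, which activates the Mmp2 precursor at the cell surface, ran from 29.7 to 88.7 CPM in NASH and from 29.2 to 45.1 CPM in WT, with a log2 fold change of 0.70 ± 0.34 (SE) and an edgeR adjusted p of 0.165. Mmp15 was at -0.11 (adjusted p = 0.527; 0.26 with library totals in place of TMM) and Mmp17, a lipid-anchored MMP, at 1.08 (adjusted p = 0.228). Mmp19 was at 0.07 (adjusted p = 0.670), and with library totals it was at 0.41 and passed (adjusted p = 0.0194). By group mean per kilobase of exon Mmp19 was the most abundant MMP (20.9 CPM per kilobase in NASH and 19.8 in WT). In CPM the NASH mean of Mmp12 was higher, 126 against 73.8 for Mmp19. The exon lengths used were 7237 bases for Mmp12 and 3533 for Mmp19. Mmp11, stromelysin-3, had a log2 fold change of 1.13 with an adjusted p of 0.0632. Its groups did not overlap, and it passed in DESeq2 (adjusted p = 0.0216) and with library totals (1.53, adjusted p = 0.0329). Mmp11 overlaps Chchd10 on the other strand, which had 13053 reads in NASH and 15221 in WT, against 156 and 62 for Mmp11.

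Timp1, a secreted inhibitor of most MMPs, had few reads in WT livers. Timp1 had 1.26, 1.67, 2.54 and 1.43 CPM in NASH replicates 1 to 4, against 0.042, 0, 0.034 and 0.245 CPM in WT replicates 1 to 4. These are 32, 45, 100 and 43 reads in NASH and 1, 0, 1 and 7 reads in WT, and no libraries of the groups overlapped. The fit put Timp1 at 4.33 ± 0.76 (log2 fold change ± SE; edgeR adjusted p = 0.00940). Of the 9 WT reads, 7 were in WT replicate 4, and without that library the log2 fold change was 5.88. The gene lies within Syn1 on the other strand, which had 240 reads in NASH and 63 in WT.

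Timp2 inhibits MMPs and also bridges Mmp14 and the Mmp2 precursor during activation. Timp2 had 18.4, 38.8, 46.7 and 53.6 CPM in NASH replicates 1 to 4, against 16, 19.6, 13.6 and 12 CPM in WT replicates 1 to 4. NASH replicate 1 lay inside the WT range and the other NASH libraries above it. The log2 fold change of Timp2 was 1.37 ± 0.30 (SE), with an edgeR adjusted p of 0.0174. The call was lost without NASH replicate 4, WT replicate 1, WT replicate 3 or WT replicate 4.

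Timp3, bound to the matrix, also inhibits ADAM17 and several ADAMTSs. Timp3 had 83.4, 98.4, 95 and 136 CPM in NASH replicates 1 to 4, against 79.1, 93.5, 77 and 70.2 CPM in WT replicates 1 to 4. The groups overlapped. Timp3 thus had a log2 fold change of 0.37 ± 0.16 (SE; edgeR adjusted p = 0.137). It lies within Syn3 on the other strand, which had 42 reads in NASH and 75 in WT. Timp4 had no read in the WT libraries and 4 reads in NASH, all in replicate 4, and was not tested.

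Adding the levels per kilobase of exon puts the families on 1 scale. The MMP sum was 71.8 ± 29.7 CPM per kilobase in NASH and 35.2 ± 1.23 in WT (SD over 4 libraries, as in the sums that follow). Mmp12 made up 13.5%, 14.1%, 36.4% and 19.8% of it in NASH replicates 1 to 4, against 0.526% to 0.739% in WT. This share rests on an exon length of 7237 bases, all annotated exons joined, and a shorter length would give a larger share. Without Mmp12 the sum was 54.4 ± 13.8 in NASH and 34.9 ± 1.25 in WT.

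The TIMP sum was 24.7 ± 6.50 CPM per kilobase in NASH and 13.8 ± 1.94 in WT, and Timp3 was 52.2% ± 7.64 of it in NASH and 71.1% ± 1.54 in WT. The MMP sum over the TIMP sum was 2.95, 2.21, 4.29 and 2.26 in NASH replicates 1 to 4, against 2.17 to 2.79 in WT. Those ratios overlapped between the groups, except in NASH replicates 1 and 3, which lay above every WT library. The ratios also rest on the exon length of 7237 bases for Mmp12. A shorter length would raise them more in NASH than in WT, so the overlap may depend on it. Levels of RNA say nothing of how much enzyme was active.

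**Figure D3:**
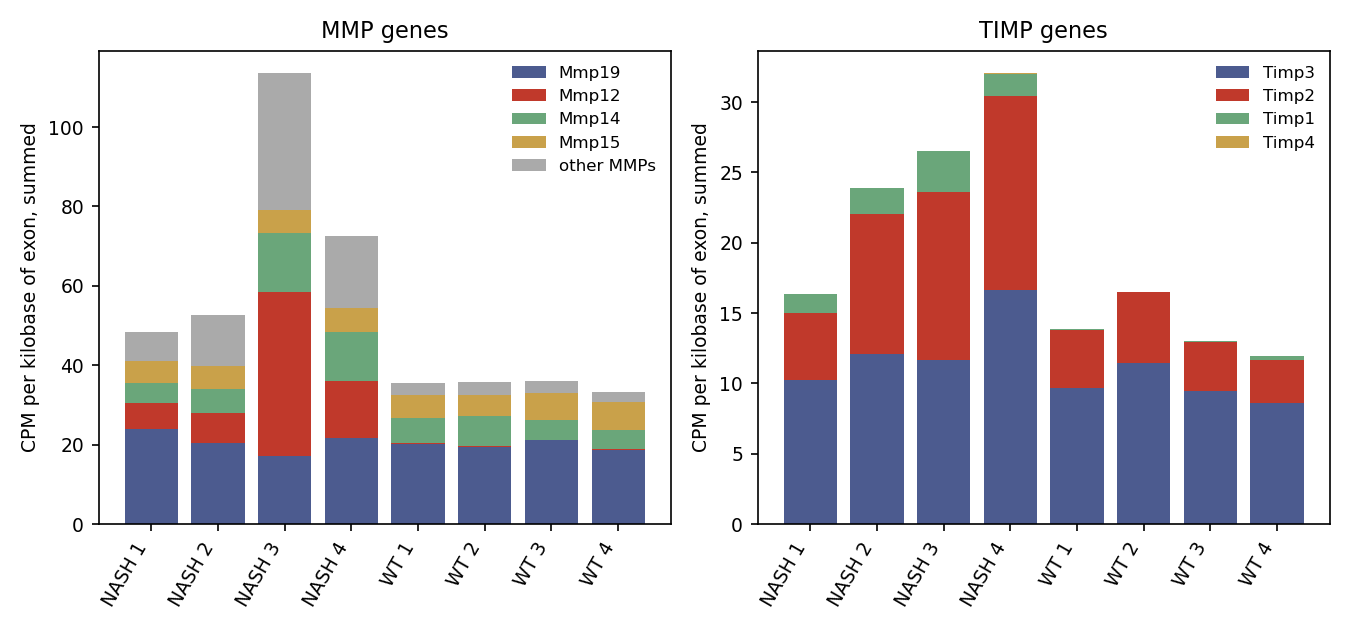
Summed CPM per kilobase of exon of the MMP genes (left) and the TIMP genes (right) in each library, stacked by gene, with the NASH libraries left of the WT libraries. The MMP sum reaches 114 in NASH replicate 3, of which 36.4% is Mmp12, while the WT sums lie between 33.4 and 36.1.

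ADAMTSs of the procollagen group trim collagen precursors. Adamts2 cuts the amino end of procollagen I. Adamts2 had 7.33, 18.4, 14 and 19.3 CPM in NASH replicates 1 to 4, against 5.01, 5.5, 4.45 and 4.2 CPM in WT replicates 1 to 4. The groups did not overlap. The fit put Adamts2 at 1.62 ± 0.28 (log2 fold change ± SE; edgeR adjusted p = 0.00931). Adamts3, which acts on procollagen and on a growth factor of lymph vessels, had a log2 fold change of 1.5 with an adjusted p of 0.0613, and its groups did not overlap. It passed in DESeq2 (adjusted p = 0.0165) and with library totals (1.86, adjusted p = 0.0309).

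ADAMTS proteoglycanases cut versican and aggrecan, and 4 of 5 tested were higher, where 12.9% of all genes tested were. Adamts15 had 3.19, 2.15, 7.28 and 3.39 CPM in NASH replicates 1 to 4, against 0.884, 1.09, 0.514 and 0.14 CPM in WT replicates 1 to 4. The lowest NASH library of this proteoglycanase was above the highest WT library. The log2 fold change of Adamts15 was 2.61 ± 0.59 (SE), with an edgeR adjusted p of 0.0185. Adamts9 had 3.62, 9.4, 8.52 and 7.01 CPM in NASH replicates 1 to 4, against 2.61, 2.84, 3.19 and 2.69 CPM in WT replicates 1 to 4. All NASH libraries of Adamts9 again lay above WT, replicate 1 least. Adamts9 thus had a log2 fold change of 1.33 ± 0.29 (SE; edgeR adjusted p = 0.0158).

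Adamts5 had 3.23, 10.5, 9.01 and 12.6 CPM in NASH replicates 1 to 4, against 3.24, 4.16, 2.67 and 4.3 CPM in WT replicates 1 to 4. For Adamts5 the groups overlapped in NASH replicate 1. The fit put Adamts5 at 1.3 ± 0.38 (log2 fold change ± SE; edgeR adjusted p = 0.0403). Adamts1 had 22.1, 26.6, 53 and 33.1 CPM in NASH replicates 1 to 4, against 19.1, 18.5, 15.1 and 19 CPM in WT replicates 1 to 4. For Adamts1 the groups were apart, with NASH replicate 3 highest. The log2 fold change of Adamts1 was 0.91 ± 0.25 (SE), with an edgeR adjusted p of 0.0348. Without NASH replicate 3 its log2 fold change was 0.59. Of these 4 calls, Adamts9 was lost without WT replicate 1 and Adamts15 without WT replicate 1 or 3. Adamts1 was lost without NASH replicate 4 or any WT library, and Adamts5 without any library but NASH replicate 1. In limma-voom the calls of Adamts1 (adjusted p = 0.0572) and Adamts5 (0.0987) were lost. Adamts4 ran from 0.394 to 5.28 CPM in NASH and from 0 to 1.68 CPM in WT, with an adjusted p of 0.202.

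None of the 4 tested ADAMTSs of other substrates passed at an adjusted p under 0.05. With so few genes, no call is near the 12.9% of all genes tested that were higher. Adamts12 had a log2 fold change of 2.68 with an adjusted p of 0.112 and passed in DESeq2 (adjusted p = 0.0487), and it ran from 0.0394 to 3.82 CPM in NASH and from 0 to 0.620 CPM in WT. Adamts13, which cleaves von Willebrand factor and is made by stellate cells, was at 0.47 (adjusted p = 0.170). Adamts10 was at 0.82 (adjusted p = 0.141) and Adamts7 at 0.36 (adjusted p = 0.479).

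**Figure D4:**
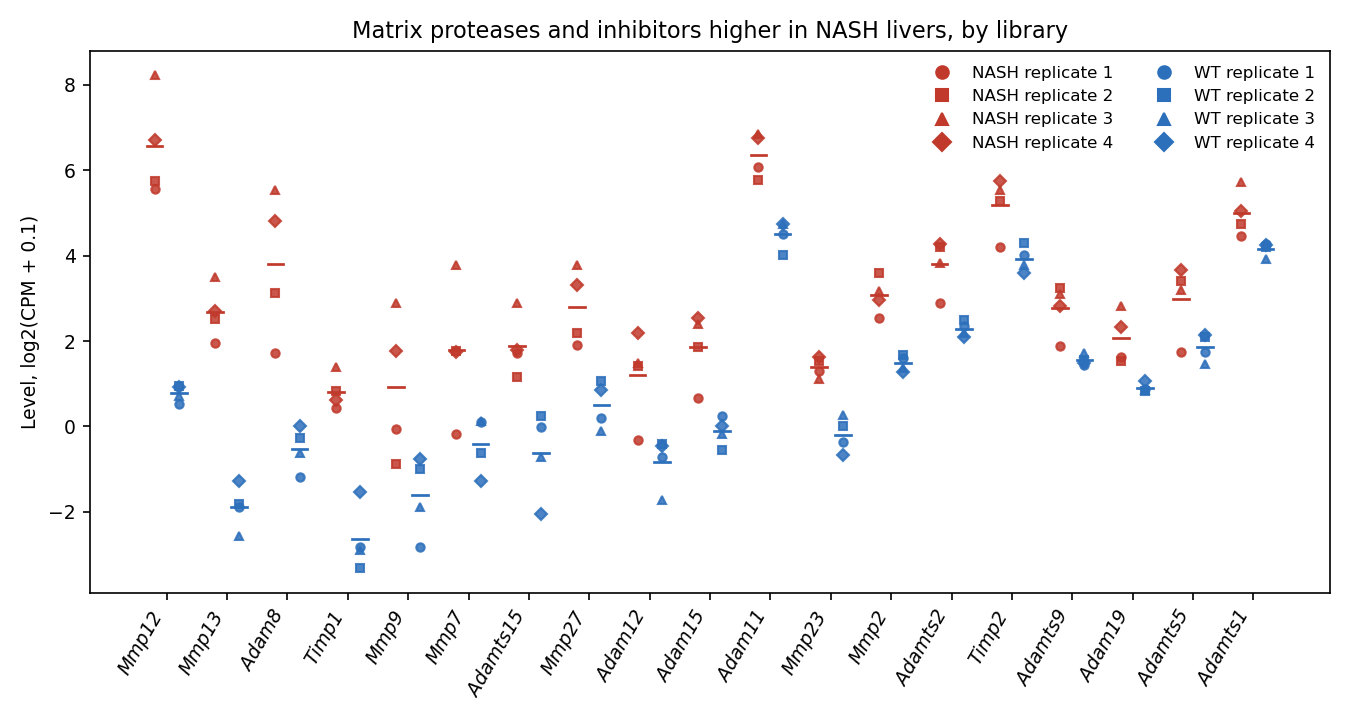
Level of the 19 genes called higher in NASH livers as log2(CPM + 0.1) in each library, NASH in red and WT in blue, with group means as lines and symbols for replicate numbers. Mmp12 is the highest NASH point and triangles (replicate 3) are the top NASH symbol for 11 of the 19 genes.

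Of the ADAMs that passed, Adam8, which leukocytes carry, had the largest fold change. Adam8 had 3.19, 8.66, 46.4 and 27.9 CPM in NASH replicates 1 to 4, against 0.337, 0.729, 0.548 and 0.909 CPM in WT replicates 1 to 4. The 4 NASH libraries lay above all WT libraries, but 3.19 to 46.4 CPM is a wide spread. Adam8 thus had a log2 fold change of 5.08 ± 0.83 (SE; edgeR adjusted p = 0.00796). Without NASH replicate 3 the log2 fold change was 4.36, and in limma-voom the call was lost (adjusted p = 0.123). Adam11 lacks the catalytic site and is known in neurons. Adam11 had 67.4, 54.7, 115 and 108 CPM in NASH replicates 1 to 4, against 22.6, 16, 26.5 and 26.8 CPM in WT replicates 1 to 4. The groups were widely apart in this gene, one of the more abundant members. The fit put Adam11 at 1.91 ± 0.27 (log2 fold change ± SE; edgeR adjusted p = 0.00542).

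Adam15 is an active enzyme found on many cells. Adam15 had 1.5, 3.55, 5.18 and 5.75 CPM in NASH replicates 1 to 4, against 1.1, 0.583, 0.788 and 0.909 CPM in WT replicates 1 to 4. All NASH libraries were above WT, replicate 1 by a small margin. The log2 fold change of Adam15 was 2.24 ± 0.43 (SE), with an edgeR adjusted p of 0.0122. Adam12 is an active ADAM seen in growing muscle and activated stellate cells. Adam12 had 0.709, 2.55, 2.71 and 4.45 CPM in NASH replicates 1 to 4, against 0.505, 0.656, 0.206 and 0.63 CPM in WT replicates 1 to 4. NASH replicate 1 was only just above WT. Adam12 thus had a log2 fold change of 2.38 ± 0.58 (SE; edgeR adjusted p = 0.0228).

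Adam19 had 2.99, 2.78, 7.03 and 4.95 CPM in NASH replicates 1 to 4, against 1.73, 1.68, 1.71 and 1.99 CPM in WT replicates 1 to 4. For Adam19, an ADAM active in heart development, the groups did not overlap. The fit put Adam19 at 1.32 ± 0.33 (log2 fold change ± SE; edgeR adjusted p = 0.0241). The calls of Adam12 and Adam19 were lost without NASH replicate 4 or any WT library, and in limma-voom (adjusted p = 0.0705 for Adam12 and 0.0535 for Adam19).

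Adam10 and Adam17, the main sheddases of the family, did not pass. Adam10 ran from 55.2 to 102 CPM in NASH and from 50.8 to 60.9 CPM in WT (log2 fold change 0.48 ± 0.20, adjusted p = 0.126). Adam17, with few reads, ran from 1.02 to 1.60 CPM in NASH and from 1.39 to 1.97 CPM in WT. Its log2 fold change was -0.23 (adjusted p = 0.599). Adam17 overlaps Iah1 on the other strand, which had 4593 reads in NASH and 6563 in WT, against 168 and 174 for Adam17. Adam9, the most abundant member by group mean per kilobase of exon (33.9 CPM per kilobase in NASH and 36.5 in WT), was at -0.11 (adjusted p = 0.528). With library totals in place of TMM the values of Adam17 and Adam9 were positive, 0.15 and 0.24, where the median of all genes tested moved to 0.37. Adam2, a sperm protein, was the sole member whose NASH libraries all lay below WT, at 0, 0.370, 0.076 and 0.033 CPM in NASH replicates 1 to 4 against 0.590, 0.401, 0.651 and 2.38 CPM in WT replicates 1 to 4. Its log2 fold change was -3.05 ± 0.97 (SE) with an edgeR adjusted p of 0.0552, and WT replicate 4 held the highest level. Without NASH replicate 2 it was -4.52 and passed, and without WT replicate 4 it was -2.18 with an adjusted p of 0.162. Adam33, Adam23, Adam1a and Adam4 did not pass (log2 fold changes 0.91, 0.47, 0.31 and 0.19), and the sign of the last 2 depended on the fit. Without NASH replicate 1, Adam10, Adam33, Adamts12 and Mmp14 passed higher, and without WT replicate 2 so did Adamts3.

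Beside Mmp8, Mmp3, Mmp10 and Timp4, the genes that did not pass the count filter were Adam1b, Adam5, Adam21, Adam22, Adam32, Adamts17, Mmp21, Mmp24, Mmp25 and Mmp28. Of these, Mmp24 had 40 reads in NASH and 4 in WT, Mmp28 had 38 and 32, Mmp25 had 26 and 5, and Adam21 had 15 in NASH and none in WT. The remaining 6 had at most 8 reads in NASH and at most 9 in WT.

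Genes that work with these enzymes moved to different extents, and 12.9% of all genes tested were higher and 6.00% lower. Of 17 tested matrix substrates 13 were higher and none lower (median log2 fold change 1.87), with Col1a1 at 4.78 ± 0.60, Col3a1 at 3.81 ± 0.46, Col1a2 at 3.60 ± 0.45 and Lum, a collagen-binding proteoglycan, at 2.76 ± 0.44 (SE). Of 9 tested genes of the plasminogen system, which activates some MMP precursors, 5 were higher and 1 lower (median 1.06). Anxa2, a plasminogen receptor subunit, was at 3.89, Plat, a plasminogen activator, at 3.66 and Plau, the other activator, at 2.50, while Serpine2, an inhibitor, was at -1.65. The calls of Plat and Plau were lost without WT replicate 1. Left-out fits called 8 to 16 matrix substrates higher, and 2 to 5 genes of the plasminogen system.

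Cathepsins and cystatins were higher in 9 of 15 tested and lower in none (median 0.90), with Ctss at 2.64 and Ctsk, which cuts collagen, at 2.16. The cystatins Cst3 and Cstb were among the 9, and Cst3 held in all 8 left-out fits and Cstb in 3. Of 21 tested regulators outside the TIMPs, 5 were higher and 1 lower (median 0.22). Lcn2, which binds Mmp9, was at 5.96 ± 1.10, Thbs1, which binds Mmp2, at 2.84 and Thbs2 at 2.04, while Tspan33, which helps Adam10 mature, was at -1.13. The calls of Thbs1 and Thbs2 were lost without WT replicate 1, and that of Thbs1 also without WT replicate 2 or 3. Rhbdf1 and Frmd8 were the other regulators called higher. Rhbdf1 and Lcn2 held in all 8 left-out fits, and Frmd8 in 2. With 1 library left out, 3 to 10 of the cathepsins and cystatins and 2 to 7 of the regulators were higher, the fewest without WT replicate 1.

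Related proteases and ADAMTS-like proteins passed in 2 of 14, near the 12.9% higher among all genes tested. They were Pcolce, which speeds procollagen trimming, at 1.48 and Adamtsl4 at 1.40. Membrane proteins that ADAM10 or ADAM17 release were higher in 9 of 24 tested and lower in 3 (median 0.77). Trem2 was at 6.69, Cx3cl1 at 2.63, Axl at 1.99 and Jag1 at 0.83, and Il6ra was at -1.02, Lag3 at -2.20 and Sdc4 at -0.76. The calls of Pcolce (without any WT library), Adamtsl4 and Lag3 (any library but NASH replicate 1), Sdc4 (NASH replicates 2 and 4 and any WT library) and Cx3cl1 (WT replicate 1) were lost when a library was left out. The shed proteins called higher then numbered 3 to 12, the fewest without WT replicate 1. All these values are log2 fold changes, NASH over WT, that passed in the same edgeR fit.

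Markers of some cell types changed and those of others gave few or no calls, where 12.9% of all genes tested were higher and 6.00% lower. Of the 10 tested markers of lipid-associated and recruited macrophages 9 were higher and none lower, with a summed level of 173, 259, 1101 and 711 CPM in NASH replicates 1 to 4, against 35.8 to 69.6 CPM in WT. Of 9 markers of resident macrophages 1 was higher and 2 lower, with sums of 365 to 1168 CPM in NASH and 166 to 446 CPM in WT. Cd5l, the 1 called higher, made up much of the NASH sum, with means of 410 CPM in NASH and 71.5 CPM in WT. Csf1r was near the floor, at means of 0.293 and 0.322 CPM, and Adgre1 was not among the genes measured. Left-out fits called 1 to 3 of the resident macrophage markers higher, the most without NASH replicate 1, and 1 to 2 lower. Fcna was lost without NASH replicate 4, WT replicate 1, WT replicate 2 or WT replicate 4. The sum of the lipid-associated and recruited macrophage markers ran in the same order of NASH libraries as Mmp12, Adam8 and Mmp13, with replicate 3 highest and replicate 4 next. That order was not particular to them. The neutrophil sum, Mmp27 and Adamts1 shared it, and replicate 3 was the highest NASH library for 11 called members and replicate 4 for 6. The part of the macrophage levels in those results was not tested.

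Neutrophil markers numbered 4 tested of 10, and none passed at an adjusted p under 0.05, while up to 2 did with 1 library left out. Their sum was 3.31, 3.55, 93.9 and 29.4 CPM in NASH replicates 1 to 4, against 0.959 to 6.93 CPM in WT. Of these genes, Ly6g had no count in WT or in NASH replicates 1, 2 and 4, and 0.152 CPM in NASH replicate 3. NASH replicates 3 and 4, the high ones in that sum, were also the high libraries of Mmp8, Mmp9 and Adam8. They were the high NASH libraries of the macrophage and stellate cell lists too. The part of the neutrophil levels in those results was not tested.

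Stellate cell and fibroblast markers were higher in 5 of 11 tested and lower in none, with sums of 293, 380, 540 and 689 CPM in NASH replicates 1 to 4, against 230 to 312 CPM in WT. Left-out fits called 1 (without WT replicate 1) to 9 of them higher. Endothelial markers were higher in 1 of 9 (303 to 587 CPM in NASH, 255 to 407 CPM in WT) and cholangiocyte markers in 1 of 6 (28.0 to 72.1 CPM in NASH, 38.7 to 46.2 CPM in WT). With so few genes, 1 higher call, as also among the resident macrophage markers, is near the 12.9% of all genes tested. The endothelial call was lost without NASH replicate 3, for example, and the cholangiocyte call without WT replicate 1. The 7 tested markers of T and NK cells and the 4 of B and plasma cells gave no call with all 8 libraries. Of 6 adipocyte markers the 2 tested, the lipid droplet gene Cidec (log2 fold change 2.23) and the fatty acid carrier Fabp4 (2.93), were higher, and the list summed to 127 to 225 CPM in NASH and 16.3 to 37.7 CPM in WT. Adipoq had no read in NASH replicates 1, 3 and 4. Cela1, the 1 pancreatic acinar marker in the table, was lower (-0.99). These 3 calls held in all 8 left-out fits. The part of these levels in the members' results was not tested.

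**Figure D5:**
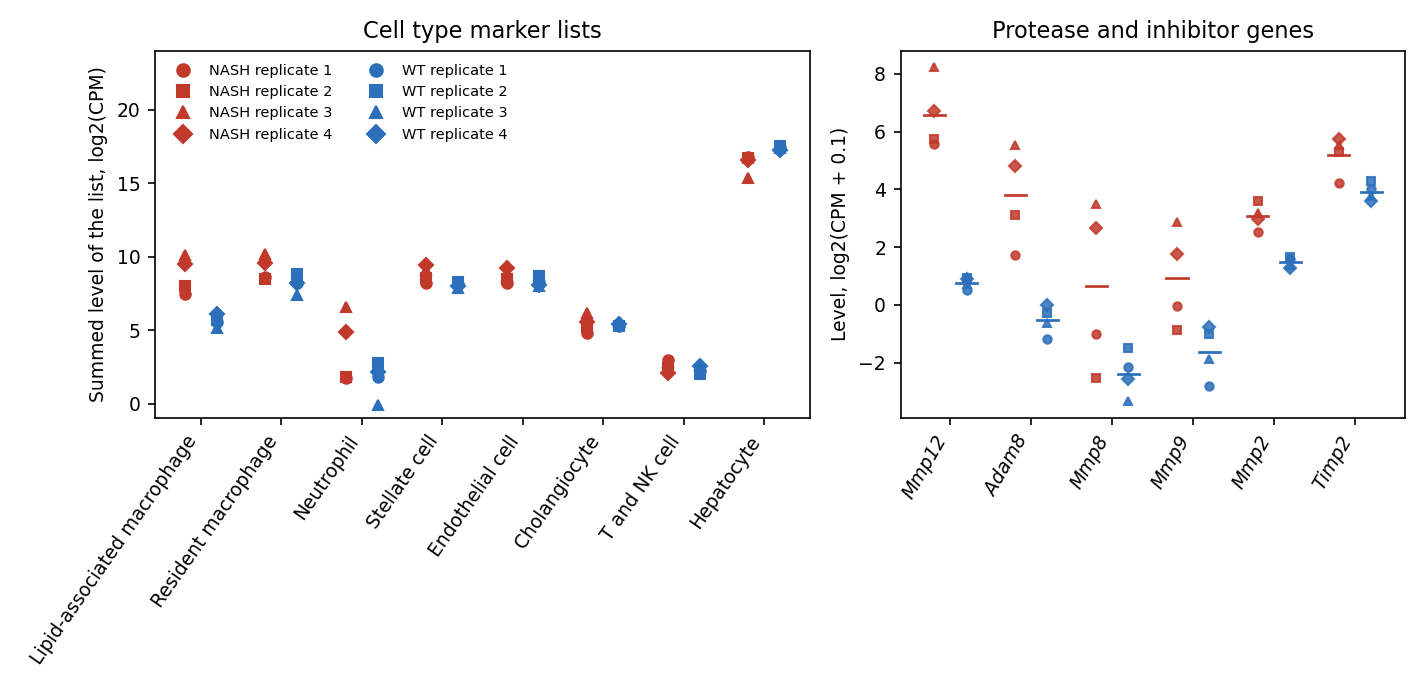
Summed level of 8 cell type marker lists as log2(CPM) (left) and levels of 6 members as log2(CPM + 0.1) (right) in each library, NASH in red left of WT in blue. NASH replicates 3 (triangles) and 4 (diamonds) are the 2 highest NASH points for every list shown except T and NK cell and hepatocyte. The same holds for Mmp12, Adam8, Mmp8, Mmp9 and Timp2, but not for Mmp2.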

How the data were processed

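The analysis of the 4 NASH and 4 WT liver libraries started from the deposited table of raw read counts per gene (16122 genes, all protein coding), whose unit was given per the file headers. The authors' 8 columns of normalized values were not used. Livers were extracted with Trizol and the libraries made with a stranded total RNA kit, per the labels' protocols. HISAT2, HTSeq 0.9.1 and the builds mm9 and mm10 are named in the submitters' processing notes, with no role given for either build. The sources used here give neither annotation nor strand setting, so genes that overlap others cannot be told apart by strand.

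Counts were filtered with edgeR's default filterByExpr, scaled by TMM and tested by the quasi-likelihood F-test of edgeR (edgeR 4.0.16, R 4.3.3, robust, two-sided, no covariates), which gave 12351 genes tested and a biological coefficient of variation of 29.2%. P-values were adjusted by Benjamini-Hochberg over all genes tested, and 0.05 was the threshold. The SE is the log2 fold change over the square root of F. Levels per kilobase used the union exon length of GENCODE M21 (GRCm38), the source of all gene coordinates. Alternatives were other scalings, no filter, limma-voom (limma 3.58.1), DESeq2 1.42.0, a replicate block and leaving out each library.

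The members, gene lists, motifs and naming rule (every called member and every TIMP library by library) were chosen with earlier results of these data known. Counting error limits genes with few reads most.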

Additional observations from a re-analysis of the deposited data

Results flagged for a closer look

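In 5 of the 78 groups of 4 libraries examined, 1 library stood far from the other 3, relative to the range of its group, and chance gives about 1 in 20. Adam19 was at 1.99 CPM in WT replicate 4, with the other WT libraries between 1.68 and 1.73. Adam2 was at 2.38 CPM in WT replicate 4, with the others between 0.401 and 0.651. For Adam33, WT replicate 2 was at 1.31 CPM and the others between 1.05 and 1.06. For Adamts1, WT replicate 3 was at 15.1 CPM and the others between 18.5 and 19.1. For Adamts4, WT replicate 2 was at 1.68 CPM and the others between 0 and 0.253.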

How the results depend on the processing

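With 19 members called higher as reported, DESeq2 size factors and no filter each gave 19, DESeq2 22, library totals 26, limma-voom 12 and a replicate block 7. Leaving out 1 library gave 10 to 23, and the number of members called lower 0 to 1 (Adam2, without NASH replicate 2). DESeq2 called 1 lower. Replicate numbers did not pair the libraries: the correlations of same-numbered deviations were 0.034, -0.14, -0.14 and -0.016, so the block shares only a number. Over all genes, 1597 were higher and 741 lower as reported. With library totals alone 3071 were higher (24.9%) and 220 lower, with the replicate block 467 and 151, and DESeq2 gave 1361 lower. Leaving out 1 library gave 636 to 2238 higher and 185 to 1504 lower. No called member changed sign under any of these settings. Among members that were not called, library totals put Adam17 at 0.15, Adam9 at 0.24 and Mmp15 at 0.26. Adam1a was at -0.15 in limma-voom, -0.018 with the replicate block and between -0.47 (without NASH replicate 1) and 0.64 with 1 library left out. Adam4 was at -0.10 in limma-voom, -0.042 with the block, -0.016 without NASH replicate 1, -0.039 without WT replicate 2 and between -0.36 (without NASH replicate 3) and 0.51 with 1 library left out. Mmp19 ran from -0.0045 (without NASH replicate 1) to 0.14 with 1 library left out. Library totals also brought calls of Adam10, Adam33, Adamts3, Adamts13, Mmp11, Mmp19 and Timp3, each higher, and DESeq2 of Adamts3, Adamts12 and Mmp11. The cause of these changes was not tested. Genes with few reads, such as Timp1 and Mmp13 in WT, were limited by depth.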
